A study of Mus musculus with 9 samples.

Results

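Differentiative progenitors (DP) were compared with proliferative progenitors (PP) of the embryonic mouse cortex across all circRNAs of the deposited table, to describe which parental genes had circRNAs gained or lost at the first step of the neurogenic lineage. The comparison used 6 of the 9 libraries, 3 of PP and 3 of DP, and the 3 libraries of newborn neurons (N) entered the filter on low counts and the estimate of the spread and are given beside the values. Of the 5281 circRNAs in the table, 27 high-count entries were left out before any scaling, namely CiCo_mm9_circ_004999 and those in one short cluster on chromosome 17. The remaining 5254 were all members of the comparison, and 4389 of them passed the filter on low counts and were tested. Some passed through their counts in N. With PP and DP libraries alone, 62 rather than 97 circRNAs of synapse genes, 109 rather than 126 of axon guidance genes and 56 rather than 64 of neuronal differentiation genes could be fitted, as could 87 of the 89 called below. Of the 67 higher and 22 lower ones among these 89, 62 and 14 were also called in that fit. The circRNAs kept were assigned by position and strand to 2758 parental genes, of which 2306 had a tested circRNA.

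All cells came from the lateral cortex of C57BL/6 mouse embryos at E14.5 that carried a pair of reporters, RFP driven by the Btg2 promoter and GFP driven by the Tubb3 promoter. Btg2 is an antiproliferative gene switched on in progenitors that commit to neurogenesis, and Tubb3 encodes a tubulin of neurons. PP were sorted as RFP−/GFP−, DP as RFP+/GFP− and N as GFP+ cells, and total RNA of each was treated with RNase R, an exonuclease that degrades linear RNA, before strand-specific libraries were made. No other treatment, age or genotype was compared, and neither the labels nor the study's methods state whether embryos were pooled or whether libraries with the same number came from the same animals.

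CircRNAs form when the end of a downstream exon is spliced back to the start of an upstream exon of the same transcript, so that the RNA closes at a backsplice junction and lacks free ends. PP are mostly radial glia, which line the ventricle, divide to expand their number, and depend on Notch and FGF receptor signalling to remain progenitors. DP are mostly intermediate progenitors, which lie further from the ventricle and divide to give neurons, and the switch between these states changes the genes of adhesion, signalling and early neuronal differentiation.

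The backsplice junctions of 3 circRNAs that were higher in DP and 3 that were lower show the molecules that the comparison is about. Each line gives the last bases of the last exon in lower case, followed by the first bases of the first exon in capitals, 30 on each side, so that the junction lies at the change of case. All 6 parental genes are on the plus strand, coordinates are those of mm9 and every junction joins coding exons.
Myt1l, higher in DP, chr12:30517153-30540148, exons 11 to 18: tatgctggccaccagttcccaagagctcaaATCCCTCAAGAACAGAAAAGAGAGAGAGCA
Kif21b, higher in DP, chr1:138045838-138047897, exons 8 to 9: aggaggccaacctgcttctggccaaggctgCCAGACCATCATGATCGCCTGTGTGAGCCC
Tiam2, higher in DP, chr17:3437228-3477278, exons 7 to 15: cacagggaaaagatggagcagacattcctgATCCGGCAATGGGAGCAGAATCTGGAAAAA
Blvrb, lower in DP, chr7:28244275-28247714, exons 2 to 4: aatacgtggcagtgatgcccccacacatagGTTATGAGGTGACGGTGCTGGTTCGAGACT
Notch2, lower in DP, chr3:97874783-97885962, exons 3 to 5: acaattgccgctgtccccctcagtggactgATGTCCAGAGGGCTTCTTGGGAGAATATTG
Bmper, lower in DP, chr9:23203794-23211275, exons 12 to 13: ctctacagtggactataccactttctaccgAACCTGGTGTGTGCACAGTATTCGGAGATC
In the genome each first exon was preceded by AG and each last exon was followed by GT, the bases of regular splice sites. None of these joins occurred in a linear protein-coding transcript of the annotation.

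The counts behind the values were modest. Outside the left-out entries, which took between 94.7 and 98.2% of the counts of a library, between 83572 and 198114 counts remained per library in PP and between 269894 and 287374 in DP. This difference in depth gave p = 0.1 in a two-sided exact permutation test, the smallest p that 3 against 3 libraries allow. Abundance is given as CPM, the counts of a circRNA scaled to a common library size, which was taken over the counts outside the left-out entries and corrected by edgeR's TMM method. A floor of 3 counts was worth between 14.1 and 40.6 CPM in a PP library and between 9.92 and 10.9 CPM in a DP library, and it covers counting error only. PP replicate 3 stood apart, with a Spearman correlation across circRNAs of 0.636 and 0.65 with the other PP libraries, which correlated at 0.909 with each other, whereas DP libraries correlated at 0.922 to 0.933. N replicate 1 likewise correlated at 0.754 and 0.806 with the other N libraries.

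The counts are of all reads within the counted features of a circRNA and not only of reads across its junction, so that a change in the circle and a change in linear RNA left after RNase R cannot be told apart. In bulk samples a change in the share of expressing cells and a change in RNA per cell cannot be told apart either. Reads were also shared between overlapping circRNAs. In all 1485 pairs in which one circRNA contains the exons of another, the outer one had at least as many counts in every library, and all 6 sets of circRNAs with the same coordinates had the same counts. CircRNAs of a gene that overlap are therefore not independent observations. The study's methods leave introns out of later analyses, yet in 12.9% of the tested circRNAs the counted length exceeded that of the annotated exons. Whether the additional bases are introns or exons of other transcripts was not tested.

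Between DP and PP, 89 circRNAs differed at an adjusted p under 0.05 (edgeR quasi-likelihood test with Benjamini-Hochberg adjustment), 2.03% of those tested. Of these, 67 were higher in DP (1.53%) and 22 were lower (0.501%), and they came from 44 and 18 parental genes, with no gene in both groups. The log2 FCs of the higher ones were between 1.15 and 7.82 with a median of 2.7, or 2.56 with the 7 circRNAs without a count in PP set at their lower bound, and those of the lower ones between -5.09 and -1.44 with a median of -1.88. The median over all tested circRNAs was -0.05, with 2013 above 0 and 2376 below. In all 67 and all 22 the CPM values of PP and DP libraries did not overlap, against 11% of all tested circRNAs that did not overlap with DP higher and 8.54% with DP lower. Without adjustment, 515 circRNAs had a p under 0.05.

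**Figure D1:**
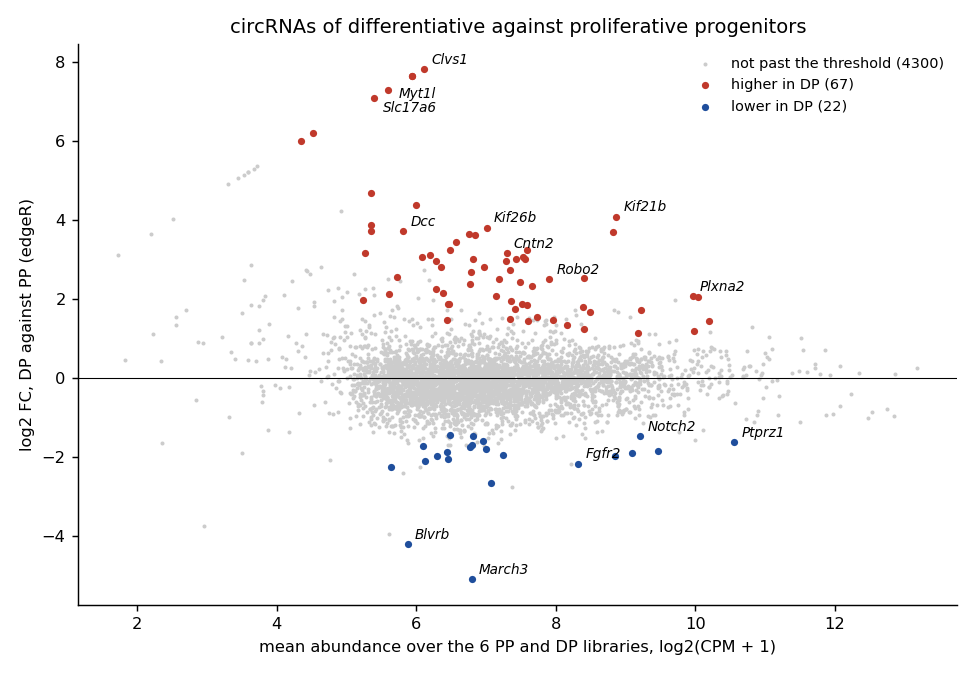
Log2 FC of DP against PP (edgeR) for each of the 4389 tested circRNAs against its mean abundance over the 6 libraries, as log2(CPM + 1). The 67 red points were higher and the 22 blue points lower in DP at an adjusted p under 0.05, and the points above a log2 FC of 4.69 among them had no count in PP, so that their height depends on the fit.

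The number of calls and the share of higher ones among them depended on the libraries and the tool. Of the calls, 60.6% were higher with limma voom and 97.3% without DP replicate 1 or DP replicate 3. By a DESeq2 FC of at least 1.5 or at most 0.67 alone, 663 were higher and 1055 lower. Leaving out 1 library at a time gave between 32 higher circRNAs (without PP replicate 2) and 124 (without PP replicate 3), and between 1 lower circRNA (without DP replicate 1 or 3) and 61 (without PP replicate 3). Every one of the 89 kept its sign in each alternative that could fit it. Since their PP and DP libraries did not overlap, leaving out 1 library could hardly change a sign, and nothing is drawn from this. With 1 library left out, 30 of the higher ones, from 15 genes, and 1 of the lower ones, of Blvrb, were called in all 9 fits.

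**Figure D2:**
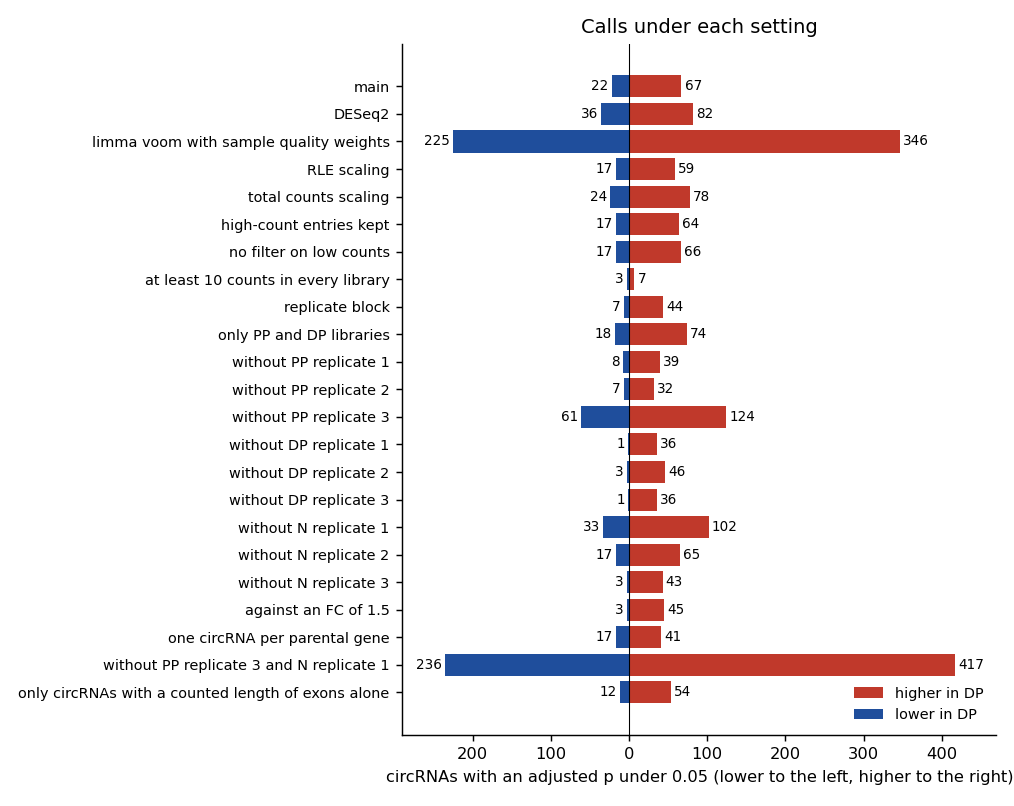
Number of circRNAs with an adjusted p under 0.05 in DP against PP under each setting, higher in DP to the right in red and lower in DP to the left in blue. The counts run from 7 higher and 3 lower, with at least 10 counts required in every library, to 417 higher and 236 lower without PP replicate 3 and N replicate 1.

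Receptors and adhesion molecules that steer axons gave the most calls of the 13 lists of processes and pathways. The lists were chosen with earlier results of these data known, and several members are circRNA hosts already seen in them. Their shares and ranks are therefore descriptions. Of 126 tested circRNAs of axon guidance and cell adhesion genes, 18 (14.3%) from 9 genes were higher in DP and none was lower (edgeR), beside 1.53 and 0.501% of all tested circRNAs. The median log2 FC of the list was 0.14, beside -0.05 over all, and some members passed the filter on low counts only through N. Without adjustment 34 of the 126 were higher and 8 lower at a p under 0.05. DESeq2 called 21 higher and none lower, and limma voom 34 and 8. Over all tested circRNAs DESeq2 called 1.87% higher and 0.82% lower, and limma voom 7.88 and 5.13%. Beside these stand the counts by both tools for this list and those below. The 9 genes called higher by edgeR were Cntn2, Dcc, Epha3, Kalrn, Nrp1, Plxna2, Robo2, Sema3c and Unc5d. They span the receptors of the 4 classical families of guidance cues, netrins, Slits, semaphorins and ephrins, together with a secreted semaphorin, an adhesion molecule and an exchange factor.

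Dcc, the netrin receptor, had 5 circRNAs at 4 separate loci of the gene and all of them were called. The one with the most counts, CiCo_mm9_circ_003073 of exons 17 to 27, had 30.2, 37.7 and 40.6 CPM in the PP libraries and 390, 252 and 402 CPM in the DP libraries. Each DP library was thus far above each PP library, at a log2 FC of 3.26 ± 0.37 (SE) and an adjusted p of 0.000522 (edgeR). The log2 FCs of 4 were between 2.16 and 3.26, and the fifth had 0, 2 and 1 counts in PP and 34, 25 and 29 in DP. Unc5d, another netrin receptor, had 2 called circRNAs at separate loci. One had a log2 FC of 3.07, and the other had 1, 0 and 1 counts in PP and 19, 16 and 27 in DP. Some of these calls were lost when a library was left out. The adjusted p of the Dcc circRNA of exons 6 to 7 was between 0.0613 and 0.216 without PP1, PP2, DP1, DP2, DP3 or N3, that of Dcc exon 2 between 0.0611 and 0.113 without PP2, DP1 or DP3, and that of Unc5d exons 3 to 4 between 0.0545 and 0.117 without PP1, PP2 or DP3. The log2 FC of Dcc exon 2 was 3.24, and 3.92 without PP1.

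Robo2, a receptor for Slits, had 3 of 4 circRNAs called. Its circRNA of exons 7 to 21, CiCo_mm9_circ_002429, had 45.4, 84.8 and 81.2 CPM in PP and 427, 335 and 456 CPM in DP, a 5.71-fold difference with an adjusted p of 0.00175 (edgeR). Among the semaphorin receptors, Plxna2 had the most counts. Its CiCo_mm9_circ_000255 had 423, 480 and 298 CPM in PP and 1693, 1303 and 2107 CPM in DP, with a log2 FC of 2.07 ± 0.35 (SE) and an adjusted p of 0.00508. Nrp1, the co-receptor of class 3 semaphorins, had a single circRNA with 7.56, 28.3 and 40.6 CPM in PP and 179, 169 and 243 CPM in DP. Its libraries did not overlap, at a log2 FC of 3.01 ± 0.48 (SE) and an adjusted p of 0.00361.

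Cntn2, which encodes the axonal adhesion molecule contactin 2, had a single circRNA with 30.2, 33 and 27.1 CPM in PP and 238, 198 and 409 CPM in DP. Its log2 FC was 3.17 ± 0.44 (SE; adjusted p = 0.0012, edgeR), and N had 3564, 2718 and 3569 CPM. The counted length of this circRNA was 1158 bases, more than the 443 bases of its exons, and its counts may include reads from outside them. For Epha3, a receptor of ephrins, 2 of 3 circRNAs at separate loci were called, with log2 FCs of 2.09 and 1.95. Sema3c, a secreted semaphorin, and Kalrn, a guanine nucleotide exchange factor, each had 1 called circRNA, at log2 FCs of 2.56 and 1.36. All called circRNAs of Robo2, Plxna2, Nrp1 and Cntn2, 3 of Dcc and 1 of Unc5d were called with each library left out. The adjusted p of Kalrn without each of PP1, PP2, DP1, DP2, DP3 and N3 was between 0.0657 and 0.184, that of Sema3c without PP2, DP1 or DP3 between 0.0528 and 0.12, and that of the Epha3 circRNA of exons 4 to 5 without PP1, PP2, DP1 or DP3 between 0.0634 and 0.0935. For the other Epha3 circRNA it was between 0.0768 and 0.198 without any one of PP1, PP2, DP1, DP2, DP3 and N3.

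**Figure D3:**
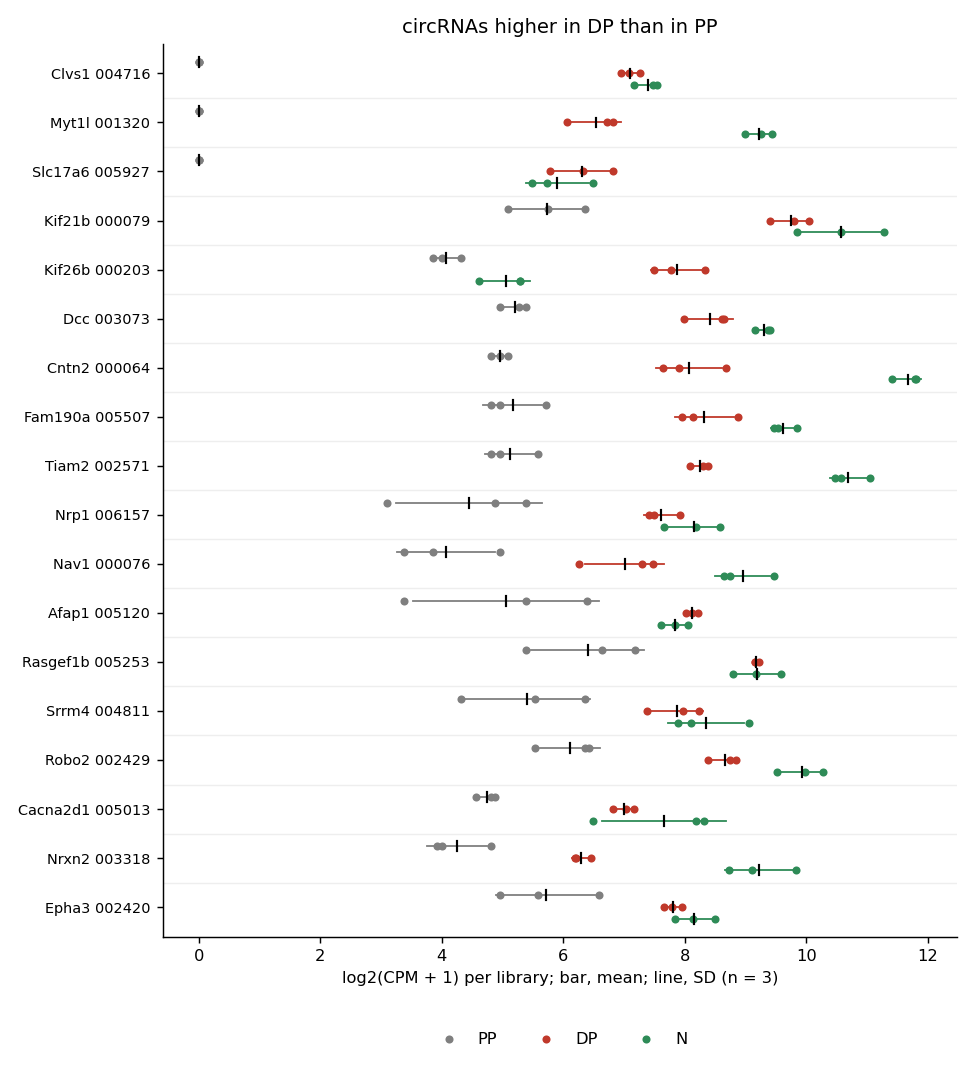
Abundance, as log2(CPM + 1), of 18 circRNAs higher in DP in each of the 3 libraries of PP (grey), DP (red) and N (green), with bars for means and lines for the SD (n = 3). In each row the 3 DP points lie to the right of the 3 PP points, and the circRNAs of Clvs1, Myt1l and Slc17a6 are at 0 in all PP libraries.

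Genes of intermediate progenitors and neurogenic commitment gave the highest share of calls among the 13 lists of processes and pathways. Since this list too was chosen with earlier results of these data known, its share and rank are a description. Of 33 tested circRNAs, 11 (33.3%) from 7 genes were higher in DP, none was lower, and the median log2 FC was 0.77, with 30 of 33 above 0. Without adjustment 16 were higher and 2 lower at a p under 0.05, DESeq2 called 12 and 1, and limma voom 18 and 2. The genes were Afap1, Elavl4, Kif26b, Mfng, Plxna2, Rasgef1b and Unc5d. Plxna2 and Unc5d are also in the list of axon guidance genes, so that their calls are counted in both.

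Kif26b encodes a kinesin-like protein that binds microtubules. Its CiCo_mm9_circ_000203, which joins exons 3 and 4, had 15.1, 18.8 and 13.5 CPM in PP, from 2, 4 and 1 counts, and 218, 180 and 322 CPM in DP. The DP libraries all lay far above the PP libraries, the log2 FC was 3.81 ± 0.45 (SE) and the adjusted p was 0.000522 (edgeR). In N it had 37.9, 23.6 and 38 CPM. A smaller circRNA of exon 3 alone, which shares its reads, followed the same course with 211 ± 52.5 CPM (SD, n = 3) in DP, 15.8 ± 2.72 in PP and 27.4 ± 5.15 in N.

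Mfng encodes a Fringe glycosyltransferase, which modifies Notch receptors and their response to ligands. CiCo_mm9_circ_002131 of Mfng had 60.5, 70.6 and 108 CPM in PP, 298, 248 and 300 CPM in DP, and 88.5, 26.9 and 71.2 CPM in N. All DP libraries were above all PP libraries at a log2 FC of 1.88 ± 0.39 (SE) and an adjusted p of 0.0259 (edgeR), which was between 0.0518 and 0.144 without any one of PP1, PP2, DP1, DP2, DP3 and N3. The second Mfng circRNA, at another locus of the gene, had 448 ± 351 CPM (SD, n = 3) in PP and 928 ± 113 in DP and was not called (adjusted p = 0.509). Elavl4, an RNA-binding protein of early neurons, had a circRNA with 189, 170 and 149 CPM in PP and 559, 569 and 525 CPM in DP. Its libraries were far apart for their spread, with a log2 FC of 1.69 ± 0.3 (SE) and an adjusted p of 0.00771, or 0.0571 without PP2. Its counted length of 2204 bases exceeded the 725 bases of its exons.

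Rasgef1b, an exchange factor for Ras family GTPases, had 144, 98.9 and 40.6 CPM in PP against 572, 594 and 572 CPM in DP (5.79-fold, adjusted p = 0.00208, edgeR). The 3 DP libraries hardly differed from each other, while the PP libraries differed by more than 3 times. This circRNA was counted over 2425 bases, of which its exons make up 444, so that most of the counted sequence lay outside them. Afap1, a protein that binds actin filaments, had both of its circRNAs called at separate loci, with log2 FCs of 2.75 and 2.4. The former was 3.86 without PP1 and 2.08 without PP2, and the latter had an adjusted p of 0.0524 without PP2. Among the 22 list members not called were the circRNA of Tox, with a log2 FC of -2.39 and an adjusted p of 0.0817, and that of St18, with 2.63 and 0.3.

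Genes of neuronal differentiation were next, with 11 of 64 tested circRNAs (17.2%) higher in DP, none lower and a median log2 FC of 0.65. They came from Ank3, Crmp1, Elavl2, Kif21b, Mtap2 (Map2) and Myt1l. In 57 of the 64 the log2 FC was above 0. Some of the 64 passed the filter on low counts only through N, so that this count and the median rest in part on N. At an unadjusted p under 0.05 27 of the 64 were higher and 2 lower, and DESeq2 called 15 higher and none lower and limma voom 27 and 2.

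Kif21b is a kinesin that moves along microtubules and regulates their growth. CiCo_mm9_circ_000079, whose junction of exons 8 and 9 is printed above, had 52.9, 33 and 81.2 CPM in PP and 886, 680 and 1057 CPM in DP, and 2477, 926 and 1519 CPM in N. Its DP libraries exceeded its PP libraries by 17-fold in the fit, with a log2 FC of 4.09 ± 0.48 (SE) and an adjusted p of 0.000522 (edgeR). A second circRNA at a separate locus of the gene, of exons 2 and 3, had 65.1 ± 14.6 CPM (SD, n = 3) in PP and 835 ± 152 in DP, with a log2 FC of 3.71 and the lowest adjusted p among the called circRNAs, 0.000469. Per kilobase of counted length the circRNA of exons 8 and 9 reached 2254 RPKM in DP and that of exons 2 and 3, whose counted length of 715 bases exceeds the 406 of its exons, 1168 RPKM.

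Myt1l encodes a zinc finger factor that represses non-neuronal genes in neurons. Its CiCo_mm9_circ_001320 had no count in the 3 PP libraries, 20, 31 and 29 counts in DP (66.2, 112 and 105 CPM) and 506, 694 and 612 CPM in N. Against a floor of 3 counts over the PP libraries together, which is 7.17 CPM, it was at least 13-fold higher in DP (adjusted p = 0.0012, edgeR). A further 3 Myt1l circRNAs were called, and all overlap it and share its reads. One of these, with 0, 0 and 2 counts in PP, had an adjusted p of 0.0576 without PP2. The fullest of these in counts, CiCo_mm9_circ_001319, had 7.56, 9.42 and 40.6 CPM in PP and 179, 202 and 203 CPM in DP, at a log2 FC of 3.65 ± 0.5 (SE). Its PP replicate 3 stood above the other PP libraries, and the log2 FC without that library was 4.41.

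Among the remaining genes of this list, Ank3 encodes ankyrin G, which organises the axon initial segment. Its circRNA of exons 13 and 14 had no counts in PP and 59.5, 32.4 and 39.8 CPM in DP, at least 6.19-fold higher (adjusted p = 0.00949, edgeR, or 0.0771 without PP2). Crmp1, a cytosolic protein of semaphorin signalling, had 113, 75.4 and 54.2 CPM in PP and 331, 259 and 315 CPM in DP. The lowest DP library was more than 2 times the highest PP library, with a log2 FC of 1.85 ± 0.35 (SE) and an adjusted p of 0.0127. Without PP2, DP1 or DP3 that p was between 0.0657 and 0.0974. The 2 circRNAs of Elavl2, a relative of Elavl4, had log2 FCs of 1.75 and 1.56 and overlap each other. Mtap2, which encodes a protein of dendritic microtubules, had 1 of 3 circRNAs called, at 1.46 (adjusted p = 0.0493). The adjusted p of Mtap2 was between 0.0587 and 0.241 without any one library other than PP3 and N1, and those of Elavl2 were between 0.051 and 0.0665 (exons 2 to 3) and between 0.117 and 0.159 (exons 3 to 4) without PP1, PP2 or DP1. The latter was also between 0.0598 and 0.123 without DP2, DP3 or N3.

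Synapse and ion channel genes had 5 of 97 tested circRNAs higher in DP (5.15%), none lower and a median log2 FC of 0.41, with 73 of 97 above 0. Some of the 97 passed the filter on low counts only through N, so that this median and this count rest in part on N. At an unadjusted p under 0.05 19 of the 97 were higher and 3 lower, and DESeq2 called 4 higher and none lower and limma voom 20 and 2. Slc17a6, the vesicular glutamate transporter VGLUT2, had no counts in PP and 112, 79.2 and 54.3 CPM in DP, at least 11.6-fold higher (adjusted p = 0.00451, edgeR), and it was the only one of the 5 called with each library left out. In N it had 88.5, 43.8 and 52.2 CPM. Atp2b2, a calcium pump of the plasma membrane, had 1, 2 and 0 counts in PP and 18, 12 and 29 counts in DP. Cacna2d1, an auxiliary subunit of calcium channels, Nrxn2, a presynaptic adhesion molecule, and Apba2, an adaptor of synaptic vesicle release, had log2 FCs of 2.26, 2.14 and 1.48 with adjusted p of 0.0332, 0.0493 and 0.0315. The adjusted p of Atp2b2, Cacna2d1, Nrxn2 and Apba2 was between 0.0508 and 0.235 without any one of PP1, PP2, DP1, DP3 and N3, and that of the last 3 between 0.0763 and 0.139 without DP2. When the replicate number was fitted as a block, a single circRNA of the 97 was called.

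The other called genes of the lists were fewer. The list of cytoskeleton and microtubule motor genes had 6 of 99 circRNAs called, all higher in DP and all of Ank3, Kif21b, Kif26b and Mtap2, which are described above, against 14 higher and none lower at an unadjusted p under 0.05. DESeq2 called 7 higher and none lower there, and limma voom 16 and 1. Among 148 circRNAs of RNA-binding and splicing factors, 5 were higher, of Elavl2, Elavl4, Srrm4 and Tnrc6c, and none lower, with 12 and 5 at an unadjusted p under 0.05, 7 and 0 by DESeq2 and 17 and 4 by limma voom. Srrm4, which drives the inclusion of neuronal microexons, had 45.4, 18.8 and 81.2 CPM in PP and 251, 166 and 300 CPM in DP. Its libraries did not overlap, at a log2 FC of 2.52 ± 0.51 (SE) and an adjusted p of 0.0217 (edgeR), or between 0.0802 and 0.124 without PP1, PP2, DP1 or DP3. Of 124 circRNAs of nervous system transcription factors, the 4 called were those of Myt1l, with 14 higher and 16 lower at an unadjusted p under 0.05, 4 and 0 by DESeq2 and 16 and 19 by limma voom. The list medians were 0.02, -0.07 and 0, beside -0.05 over all tested circRNAs.

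Some 22 circRNAs higher in DP came from 16 genes outside the lists, which is 0.711% of the 3096 tested circRNAs there. All 4 circRNAs of Tiam2, an exchange factor for Rac, were called and overlap each other. CiCo_mm9_circ_002571 had 30.2, 47.1 and 27.1 CPM in PP and 334, 270 and 315 CPM in DP, with a log2 FC of 3.03 ± 0.38 (SE) and an adjusted p of 0.000737 (edgeR). It was counted over 1659 bases, of which the printed circle's exons make up 1209. All 3 DP libraries lay well above the PP libraries, and N had 2111, 1519 and 1419 CPM. Clvs1, a lipid-binding protein of endosomes and lysosomes, had 3 overlapping circRNAs without a count in PP, for which only a lower bound can be given. The longest had no counts in PP, 46, 34 and 37 counts in DP, and 177, 185 and 142 CPM in N. Its 152, 122 and 134 CPM in DP made it at least 19.1-fold higher (adjusted p = 0.000522), and the others were at least 16.9-fold higher.

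Nav1, a neuron navigator that associates with microtubules, had 30.2, 9.42 and 13.5 CPM in PP and 155, 75.6 and 177 CPM in DP. These did not overlap, and the log2 FC was 2.96 ± 0.56 (SE; adjusted p = 0.0128, edgeR, or between 0.0605 and 0.116 without PP2, DP1 or DP3). Without PP1 it was 3.62. Both circRNAs of Fam190a (Ccser1), which was placed in the list of cell cycle genes, were called. They overlap, and CiCo_mm9_circ_005507 had 30.2, 51.8 and 27.1 CPM in PP and 281, 248 and 467 CPM in DP, at a log2 FC of 3.06. The 2 called circRNAs of Acly, the enzyme that makes cytosolic acetyl-CoA from citrate, had the smallest log2 FCs of the 67, 1.15 and 1.19. Eif2c1 (Argonaute 1), a core protein of microRNA silencing, was close to these at 1.25, with 144, 193 and 271 CPM in PP and 447, 464 and 500 CPM in DP (adjusted p = 0.0493). The counted lengths of these 3 exceeded those of their exons. Tnrc6c, its partner in the same pathway, had 1 of 3 circRNAs called, with 630 ± 18.5 CPM (SD, n = 3) in PP and 1713 ± 455 in DP. The calls of Acly, Eif2c1 and Tnrc6c were lost without any one of PP1, PP2, DP1, DP2, DP3 and N3, with adjusted p between 0.0657 and 0.264, and also without N2 for Eif2c1 (0.0619) and the Acly circRNA of exons 17 to 20 (0.0534). The other genes outside the lists, 6330407J23Rik (Soga3), Adamts7, Hecw1, Kit, Mdga1, Nfatc2, Plcxd2, Prmt8, Ralgds and Zswim5, had 1 called circRNA each. All of these calls were lost when certain single libraries were left out. The adjusted p of Prmt8 was 0.0882 without PP2, that of Hecw1 between 0.0508 and 0.124 without PP1, PP2, DP1, DP3 or N3, and those of the other 8 between 0.0608 and 0.224 without any one of PP1, PP2, DP1, DP2, DP3 and N3. Kit and Zswim5 were also lost without N2 (0.0625 and 0.0564) and by DESeq2 (0.107 and 0.0599).

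**Figure D4:**
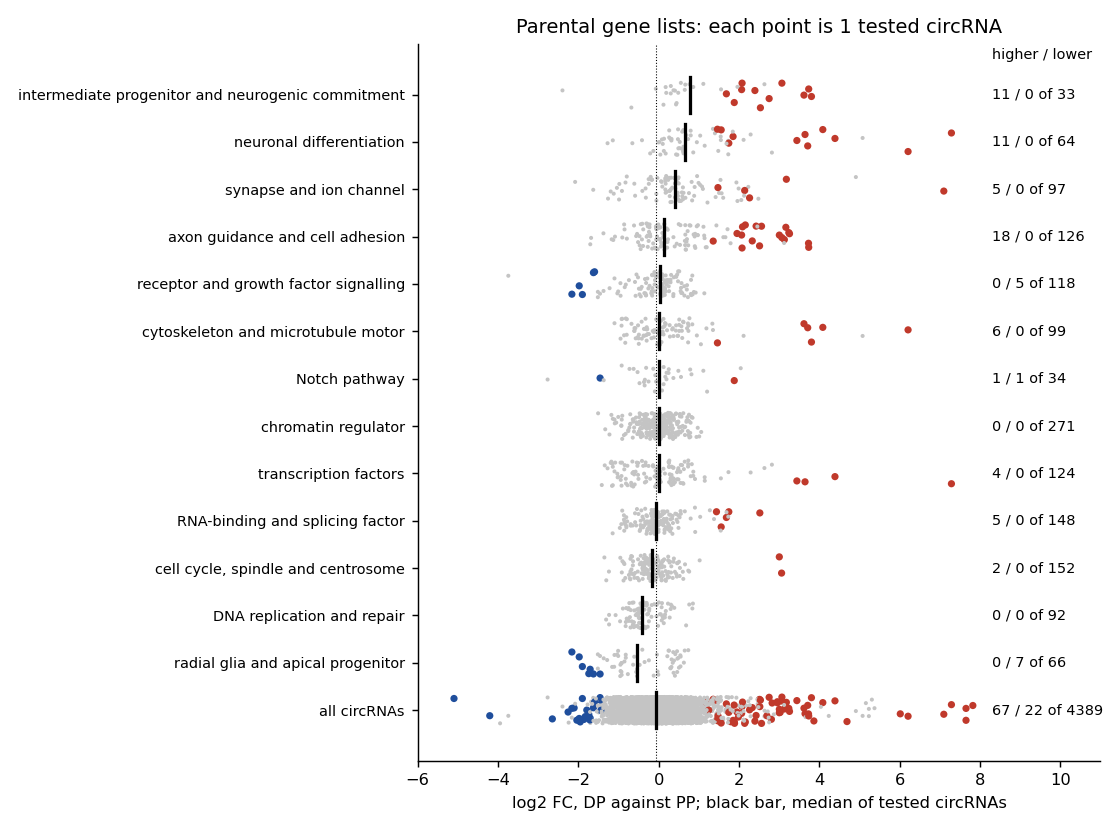
Log2 FC of DP against PP for each tested circRNA of the 13 lists of parental genes and of all tested circRNAs, with a black bar at the median of each list and a dotted line at the median of all. Red and blue points were called higher and lower in DP, and the numbers at the right give these calls of those tested, from 11 and 0 of 33 for intermediate progenitor genes to 0 and 7 of 66 for radial glia genes.

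On the other side, the circRNAs lower in DP included receptors and enzymes of radial glia. Of 66 tested circRNAs of radial glia and apical progenitor genes, 7 (10.6%) from 5 genes were lower and none was higher (edgeR), beside 0.501 and 1.53% of all tested circRNAs. The median log2 FC was -0.54, with 42 of 66 below 0, beside 2376 of 4389 over all tested circRNAs. At an unadjusted p under 0.05 26 were lower and none was higher, and DESeq2 called 14 lower and none higher and limma voom 28 and 3. The genes were Ddah1, Fgfr2, Gpr98 (Adgrv1), Notch2 and Ptprz1. Other members of the list moved less or the other way, with gene medians of -0.98 for the 4 circRNAs of Gli3, -0.94 for the 8 of Cdon, 0.36 for the 6 of Nfib and 0.47 for the 7 of Pard3, and none of these was called.

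The calls and the median of this list differed with the counted length and the filter on low counts, and the calls also with single libraries. In 22 of its 66 circRNAs, from 9 genes, the counted length exceeded that of the exons, and these had a median log2 FC of -0.94 against -0.08 for the others. With all circRNAs left out that were not counted over exons alone, 42 remained, with 2 calls and a median of -0.07. This left out whole circRNAs and genes such as Cdon, and the part of the additional bases in the log2 FCs was not tested. Without DP1, DP2 or DP3 the list had no call, and without N3 it had 1, although its median stayed between -0.6 and -0.44 in these fits. With at least 10 counts required in every library, N included, 29 of its circRNAs remained. These had 1 call and a median log2 FC of 0.21, beside -0.04 over all, with 12 of 29 below 0. This filter leaves out circRNAs that are low in N, such as the called ones of Notch2, Gpr98 and Ddah1. The median of those that remained therefore depends in part on N. Against an FC of 1.5 the list had no call.

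Notch2, one of the Notch receptors through which neighbouring cells hold radial glia in the progenitor state, had the second lowest adjusted p of the 22. Its CiCo_mm9_circ_004213 of exons 3 to 5, counted over its exons alone, had 923, 895 and 785 CPM in PP and 314, 317 and 319 CPM in DP. The 3 libraries of each group were close to each other and the groups far apart, at a log2 FC of -1.46 ± 0.27 (SE) and an adjusted p of 0.00949 (edgeR). In N it had 25.3, 23.6 and 14.2 CPM, from 2, 7 and 3 counts. The adjusted p was 0.0504 without PP2 and between 0.0774 and 0.105 without DP1, DP2 or DP3, while the log2 FC stayed between -1.51 and -1.41. A second Notch2 circRNA at another locus had a log2 FC of -1.37 and was not called (adjusted p = 0.138).

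Fgfr2, a receptor of fibroblast growth factors, had 6 overlapping circRNAs with log2 FCs between -2.16 and -1.46, of which 3 were called. CiCo_mm9_circ_005756 had 423, 471 and 1313 CPM in PP and 152, 212 and 181 CPM in DP. PP replicate 3 was about 3 times the other PP libraries, and without it the log2 FC was -1.29 rather than -1.98, with an adjusted p of 0.0147 (edgeR). That p was between 0.0657 and 0.191 without DP1, DP2, DP3 or N3, and the other 2 called Fgfr2 circRNAs, at log2 FCs of -1.25 and -1.41 without PP3, lost their calls in the same fits, with adjusted p between 0.0655 and 0.215. The counted length of 1617 bases exceeded the 515 bases of its exons. The 3 Fgfr2 circRNAs that were not called were counted over their exons alone and had log2 FCs of -1.46, -1.51 and -1.51.

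Ptprz1, a receptor-type tyrosine phosphatase of radial glia, had the most counts of the 22 circRNAs. It had 2458, 2656 and 1720 CPM in PP, 698, 979 and 547 CPM in DP, and 859, 1846 and 1405 CPM in N. The lowest PP library was above the highest DP library, with a log2 FC of -1.62 ± 0.36 (SE) and an adjusted p of 0.0329 (edgeR), and it was counted over 8313 bases of which its exons make up 3784. Ddah1, which degrades asymmetric dimethylarginine, an inhibitor of nitric oxide synthases, had 166, 137 and 203 CPM in PP and 66.2, 39.6 and 39.8 CPM in DP (log2 FC -1.74, adjusted p = 0.0297). Of the 5 tested circRNAs of Gpr98, a very large adhesion receptor, all had a log2 FC below 0 and 1 was called, at -1.7. In N that one had no counts in any library. The calls of Ptprz1 and Ddah1 were lost without any one of PP1, PP2, DP1, DP2, DP3 and N3, with adjusted p between 0.0717 and 0.248 for Ptprz1 and between 0.0653 and 0.197 for Ddah1. Gpr98 lost its call without those libraries and without N2, with adjusted p between 0.0534 and 0.231.

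**Figure D5:**
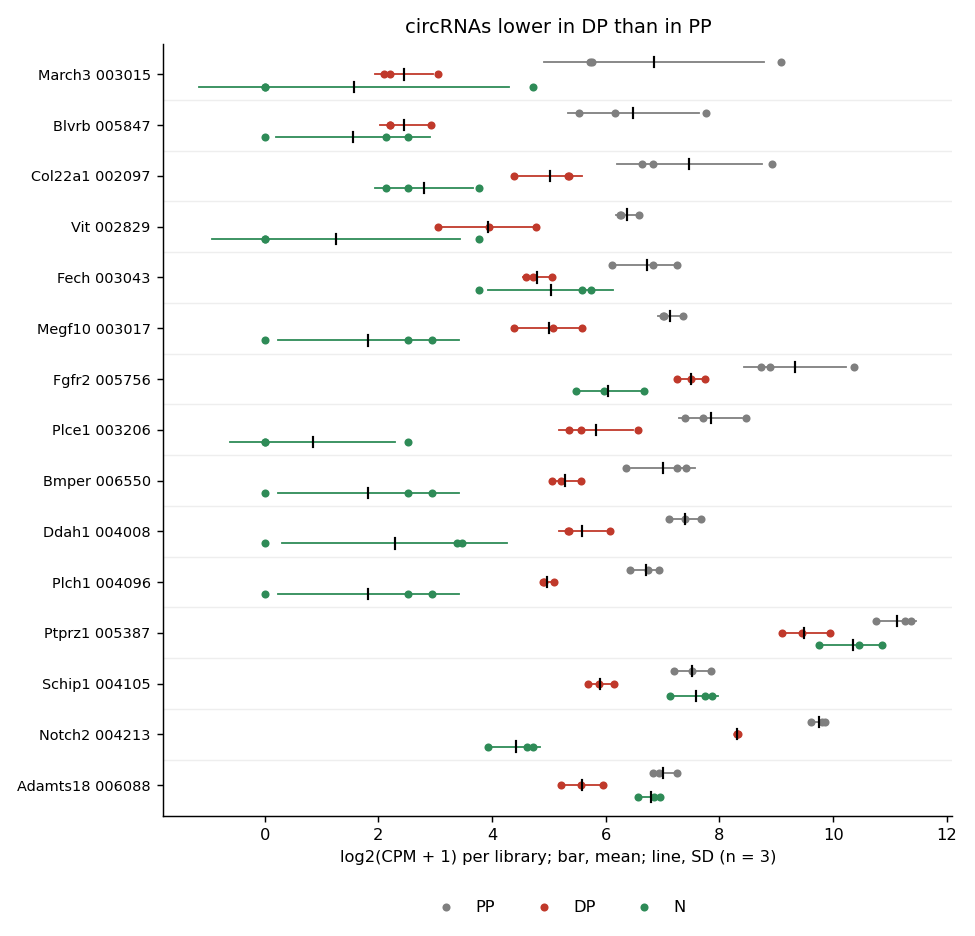
Abundance, as log2(CPM + 1), of the 15 circRNAs lower in DP with the smallest p, one per gene, in each of the 3 libraries of PP (grey), DP (red) and N (green), with bars for means and lines for the SD (n = 3). The 3 PP points of each row lie to the right of the 3 DP points, and for March3, Blvrb, Col22a1 and Fgfr2 a single PP point lies well to the right of the others.

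The remaining 14 circRNAs lower in DP from genes outside the process lists came from 12 genes, which is 0.452% of those tested there. Blvrb, which encodes biliverdin reductase B, had 6, 15 and 16 counts in PP and 2, 1 and 1 in DP. Its 45.4, 70.6 and 217 CPM in PP stood above 6.62, 3.6 and 3.62 CPM in DP, at a log2 FC of -4.2 ± 0.7 (SE) and an adjusted p of 0.00508 (edgeR). Without PP replicate 3, its highest library, the log2 FC was -3.52. Fech encodes ferrochelatase, the last enzyme of haem synthesis, and had 113, 151 and 67.7 CPM in PP against 23.2, 32.4 and 25.3 CPM in DP (log2 FC -2.1, adjusted p = 0.0242, and between 0.0518 and 0.159 without any one of PP1, PP2, DP1, DP2, DP3 and N3). March3, a membrane-bound ubiquitin ligase, had 52.9, 51.8 and 542 CPM in PP against 3.31, 3.6 and 7.24 in DP. PP replicate 3 alone held most of its PP counts, and the log2 FC was -5.09 with that library and -3.32 without it, at adjusted p of 0.0294 and 0.0296. Without DP1, DP2, DP3 or N3 its adjusted p was between 0.052 and 0.15.

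A further 5 genes, put together after their values were seen, encode proteins of the cell surface or the matrix. Genes for such proteins also had circRNAs higher in DP, among them the guidance receptors above and Adamts7 (log2 FC 1.88). Megf10, an engulfment receptor, had 129, 127 and 162 CPM in PP and 19.8, 46.8 and 32.6 CPM in DP. The groups were clearly apart, at a log2 FC of -2.04 ± 0.4 (SE) and an adjusted p of 0.0148 (edgeR), which was between 0.0534 and 0.129 without PP1, PP2, DP1 or DP3. Bmper, a secreted protein that binds bone morphogenetic proteins, had 151, 170 and 81.2 CPM in PP, 46.3, 32.4 and 36.2 CPM in DP, and at most 6.74 CPM in an N library. Its log2 FC was -1.86 (adjusted p = 0.0242, and between 0.0591 and 0.154 without any one of PP1, PP2, DP1, DP2, DP3 and N3). Col22a1, a collagen, had 113, 98.9 and 487 CPM in PP and 19.8, 39.6 and 39.8 in DP, and its log2 FC of -2.65 was -1.65 without PP replicate 3. Without DP1, DP2, DP3 or N3 its adjusted p was between 0.0673 and 0.191. Vit, a matrix protein, and Adamts18, a secreted metalloprotease, had log2 FCs of -2.25 and -1.44, both with an adjusted p of 0.0491, which was between 0.0606 and 0.265 without any one library other than PP3 and N1.

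Enzymes of phosphoinositide signalling were found on both sides. Plce1, which encodes phospholipase C epsilon, had 3 circRNAs at 2 loci and all were lower in DP, with log2 FCs between -1.96 and -1.79. CiCo_mm9_circ_003206 had 166, 207 and 352 CPM in PP and 46.3, 93.6 and 39.8 CPM in DP, and 1 count in the 3 N libraries together. Plch1, phospholipase C eta 1, had 106, 84.8 and 122 CPM in PP and 33.1, 28.8 and 29 CPM in DP (log2 FC -1.71, adjusted p = 0.0327, edgeR). Plcb1, phospholipase C beta 1, was among the circRNAs higher in DP, with 0, 2 and 0 counts in PP and 29, 13 and 24 in DP. No list of such genes had been made, so that these 3 genes were put together after their values were seen. The last 3 genes with lower circRNAs were Schip1, Pea15a and Ssbp2, at log2 FCs of -1.59, -1.83 and -1.46. The adjusted p of the named Plce1 circRNA was between 0.0657 and 0.197 without PP2, DP1, DP3 or N3. Those of Plcb1, between 0.0508 and 0.118, and of Plch1, Schip1, Pea15a and Ssbp2, between 0.0549 and 0.271, were above the threshold without any one of PP1, PP2, DP1, DP3 and N3, the last 4 also without DP2 and Ssbp2 without N2. The other 2 Plce1 circRNAs lost their calls without PP1, PP2, DP1, DP2, DP3 or N3 (0.0583 to 0.26), and that of exon 3 also without N2 or PP3 (0.0513 and 0.0522).

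The Notch pathway as a list did not move in one direction. Of 34 tested circRNAs, 1 was higher (Mfng) and 1 lower (Notch2), 17 had a log2 FC above 0 and 17 below, and the median was 0.01. At the level of the receptors, the circRNA of Notch1 had a log2 FC of -0.92. Lfng, a Fringe enzyme like Mfng, had 15, 20 and 49 counts in PP, 7, 16 and 9 in DP and none in N. Its log2 FC of -2.76 missed the threshold (adjusted p = 0.0791, edgeR). Most of its PP counts were in PP replicate 3, the library with the lowest depth. Dtx1, an E3 ligase that regulates Notch, had a log2 FC of 2.04 (adjusted p = 0.0746). Receptor and growth factor signalling genes had 5 of 118 circRNAs lower in DP, of Fgfr2, Ptprz1 and Schip1, none higher, and a median of 0.05. There 4 were higher and 15 lower at an unadjusted p under 0.05, and DESeq2 called 7 lower and none higher and limma voom 15 and 5.

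For genes of division and of the nucleus the shares of calls were near or below the 1.53% higher and 0.501% lower of all tested circRNAs. At those shares few calls would be found in the lists of 92 and 152 circRNAs. More would be found in that of 271, which had none by edgeR. For DNA replication and repair, none of 92 tested circRNAs was called by edgeR or DESeq2, although 70 of 92 had a log2 FC below 0 and the median was -0.42. By limma voom with sample quality weights 13 were lower and 3 higher, and by edgeR without PP replicate 3, 2 were lower. At an unadjusted p under 0.05, 5 were lower and 3 higher. Gene medians were for example -0.89 for Mcm4 and -0.7 for Mcm6, subunits of the replicative helicase, -0.81 for Prim2, a primase subunit, and -0.5 for the 6 circRNAs of Topbp1, a checkpoint adaptor. For cell cycle, spindle and centrosome genes, the 2 circRNAs of Fam190a were the only calls among 152 (1.32%), and the median was -0.17. At an unadjusted p under 0.05 3 were higher and 6 lower, and DESeq2 called 2 higher and none lower and limma voom 3 and 5. The 4 tested circRNAs of Top2a had a median of 0.3 and the 11 of Ckap5, a microtubule polymerase of the spindle, a median of -0.19. Chromatin regulators had no call by edgeR or DESeq2 among 271 circRNAs, with a median of 0.01 and log2 FCs on both sides, 140 above 0 and 131 below. At an unadjusted p under 0.05, 9 were higher and 9 lower, and limma voom called 17 and 12. Over all tested circRNAs limma voom called 7.88% higher and 5.13% lower.

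Strict gain and loss by counts were also asymmetric. With 0 counts in every PP library and at least 3 in every DP library, 13 circRNAs (0.247% of 5254) were gained, and none was lost by the mirrored criterion. They came from Ank3, Cacna1a, Clvs1, Hecw1, Myt1l, Nav3, Ndst3 and Slc17a6. Of the 13, 7 had passed the test and 6 had not, such as the 2 of Nav3, a neuron navigator, with 8, 3 and 8 counts in DP each. In N the same Nav3 circRNAs had 251 ± 84.2 and 277 ± 104 CPM (SD, n = 3). The greater depth of DP libraries moves with this asymmetry, since 43 circRNAs were at 0 in all PP libraries and 7 in all DP libraries, and its part in the count was not tested.

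Some features of the called circRNAs did not enter the fit as such. A longer counted length can gather more reads, so that it can bear on which circRNAs pass the filter and the threshold. The counted length had a median of 841 bases in those higher in DP and of 589 in those lower. It was 528 over all tested and 468 over all circRNAs kept. The median number of exons was 3 in each set. The introns beside the circRNA were longer in both sets, with medians of 15131 bases upstream and 14897 downstream for the higher and 10310 and 12694 for the lower, beside 6986 and 5209 over all tested. CircRNAs that begin at exon 2 of their transcript made up 34.3% of the higher, 18.2% of the lower and 28.4% of the tested ones. The share with coding exons alone was 77.6, 95.5 and 79.7% in the same order. The counted length exceeded that of the exons in 19.4, 18.2 and 12.9%. Since overlapping circRNAs of one gene are counted here several times and longer genes can hold more of them, these shares are descriptions and were not tested.

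Markers of other cell types that the sorted fractions could hold were mostly without a circRNA in the table. None of 26 endothelial and none of 23 pericyte, fibroblast and meningeal markers had one. Among the erythroid markers only Tfrc, the transferrin receptor, had a circRNA, with 67.7 to 113 CPM in PP and 54 to 69.5 CPM in DP (adjusted p = 0.546, edgeR), and the globins had none. The erythroid list therefore says little beside the lower circRNAs of Blvrb and Fech, and its part in them was not tested. Of 22 interneuron and ganglionic eminence markers, Erbb4 and Zfhx3 had circRNAs, while Dlx1, Dlx2, Gad1 and Gad2 had none. Their summed level was 22.7, 33 and 108 CPM in PP, 13.2, 10.8 and 18.1 CPM in DP and 99.7 to 205 CPM in N (PP against DP, p = 0.1 in a two-sided exact permutation test, the smallest possible). These sums rested on 3 to 8 counts per PP library and 3 to 5 per DP library. Reln, for Cajal-Retzius cells, had at most 2 counts in a PP or DP library and 152 to 185 CPM in N. Tgfbr1, the only one of 21 microglia and macrophage markers with a circRNA, had 81.2 to 431 CPM in PP and 259 to 447 CPM in DP over its 2 circRNAs. Opcml, for oligodendrocyte precursors, had 1 count in the 6 libraries. The genes that define the sorted cells, Btg2, Tubb3, Eomes, Pax6, Sox2, Hes1, Hes5, Neurog2, Vim and Nes, had no circRNA in the table, and the labels could not be checked by them.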

How the data were processed

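RNase R-treated total RNA of 3 libraries each of PP, DP and N was sequenced by the authors, who aligned reads to mm9 with gsnap, predicted circRNAs from unaligned reads with find_circ, and counted reads on expressed features with featureCounts. The submitters' processing notes name bcl2fastq 1.8.4 and Subread 1.6.0. The deposited table holds raw counts, whole numbers that the authors did not normalize, for each circRNA in each library, beside coordinates and a counted length. Columns were matched to samples by the reporters in the labels.

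Parental genes and exons came from the GENCODE vM1 annotation of that build, which is not the authors' annotation. Symbols of 2739 of 2758 genes matched RefSeq. Counts were tested with edgeR 4.0.16 in R 4.3.3 (filterByExpr, TMM, quasi-likelihood test, Benjamini-Hochberg over all tested circRNAs, threshold 0.05) in one model over 9 libraries without a block, contrast DP against PP. RPKM is CPM per kilobase of counted length. Alternatives were DESeq2 1.42.0, limma 3.58.1 (voom with sample quality weights), other scalings and filters, a replicate block, each library left out, a test against an FC of 1.5, FC alone and 1 circRNA per gene. Leaving out PP replicate 3 and N replicate 1 together, and keeping only circRNAs counted over exons alone, were chosen after seeing the data. Other values used Python 3.11.15 with pandas 2.3.3, numpy 2.4.6, scipy 1.17.1 and matplotlib 3.10.9. Of these steps, only the test of DP against PP was tried on simulated counts. There it found 84.9% of 172 tested circRNAs given an absolute log2 FC of 2. Among the circRNAs it called, 7.59% had been simulated without a change. In counts simulated with no change at all, it called 0. The simulated libraries shared one spread over all circRNAs and groups and none stood apart. The real groups differed in spread and PP replicate 3 stood apart, so that these rates may not hold for the real calls.

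The circRNAs named are the 15 with the largest log2 FC in DP among called ones of at least median abundance (log2 CPM of 6.99) without overlap, 1 per gene, the 15 lower ones with the smallest p, 1 per gene, called members of gene lists (at most 4 per list and direction) and up to 2 members of each marker list. All others were named after their values were seen. The comparison and the lists were chosen with earlier results of these data known, and several list members are circRNA hosts already seen in them, so that the counts of the lists are descriptions. The same-numbered PP and DP libraries did not deviate together (correlations of 0.0708, -0.0306 and 0.00817), and nothing states that they share animals. The edgeR p-values set the difference between DP and PP against the spread between these libraries, estimated over the 3 groups together. The groups differed in spread, with a coefficient of variation between libraries (edgeR, common to all tested circRNAs) of 0.417 in PP, 0.122 in DP and 0.329 in N.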

Additional observations from a re-analysis of the deposited data

How the results depend on the processing

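The number of circRNAs that were higher and lower in DP, 67 and 22, moved with the processing. Counts of higher and lower circRNAs were 82 and 36 with DESeq2, 346 and 225 with limma voom, 7 and 3 with at least 10 counts in every library, 45 and 3 against an FC of 1.5, 41 and 17 with 1 circRNA per parental gene, 54 and 12 for circRNAs counted over exons alone, 417 and 236 without PP replicate 3 and N replicate 1, and 663 and 1055 by FC alone (DESeq2 FC of at least 1.5 or at most 0.67). Leaving out 1 library gave 32 to 124 higher and 1 to 61 lower. Called members of the gene lists, 53, became 235 with voom, 7 with at least 10 counts, 34 against an FC of 1.5, 30 with 1 circRNA per gene, 267 without PP replicate 3 and N replicate 1, and 27 to 98 with 1 library left out. The cause was not tested, except that fewer circRNAs or libraries entered some fits. RLE or total counts scaling, the high-count entries kept, no filter, and the fit of PP and DP alone stayed within 1.5 times for both directions. The last of these called 62 of the 67 and 14 of the 22.

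With the replicate number as a block, 44 circRNAs were higher and 7 lower, all of them among the 67 and 22, and 38 were list members. The numbers are not known to pair the libraries, and same-numbered libraries did not deviate together, so that this is only another fit. All 89 kept their sign wherever they were fitted, which PP and DP libraries that do not overlap all but fix in advance. The gain of 13 and the loss of 0 circRNAs by counts became 10 and 0 with at least 5 counts in each DP library against at most 1 in all PP libraries together. PP replicate 3 had the lowest depth, and a circRNA with no count there could have been present at up to 40.6 CPM.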
